A study of Drosophila melanogaster with 4 samples.

Results

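The KDM4A regions described here are those of the X chromosome interior: regions of significant enrichment on the X whose midpoint lies between 1000001 and 20422827 of FlyBase release 5. These limits leave out the 1 Mb nearest the telomere and the 2 Mb nearest the centromere, and enclose 19.4 Mb. The interior held 1601 of 11489 regions in ChIP replicate 1 (13.9%). ChIP replicate 2 had 967 of 5780 there (16.7%), and the authors' combined list for the series 1674 of 11016 (15.2%). It held 87.8%, 91.3% and 90.0% of all regions called on the X in these lists. No region straddled either limit. The nearest regions inside the lower limit began at 1028162 (replicate 1), 1027835 (replicate 2) and 1026992 (combined), and the nearest outside it ended at 969494, 958338 and 969274. At the upper limit the last regions inside ended at 20397245, 20396977 and 20397186, and the first outside began at 20460866, 20526661 and 20502918.

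The lists come from chromatin immunoprecipitation with sequencing (ChIP-seq) on 3rd instar larvae of the wild-type strain Oregon-R, precipitated with Q2541, an affinity-purified rabbit polyclonal antibody raised against JMJD2A/KDM4A. The series has 4 samples, 2 ChIP libraries and 2 input libraries, all of the same strain, genotype and stage, and no treatment is given. For ChIP replicate 2 and input replicate 1 the free-text description names the other kind of DNA (input and ChIP) than the title and source name do. The title was followed here, so every result on replicate 2 rests on the library titled ChIP replicate 2. The labels do not state the sex of the larvae, the number of animals in a library, or whether the replicates came from separate cultures, so the spread between replicates may be technical. The labels name no tissue of these larvae, and a region in a list does not show in which cells KDM4A was present. With 2 ChIP libraries and no input region list analysed here, no test across samples was possible, and every comparison below is descriptive. Intervals on shares of regions are exact Clopper-Pearson 95% intervals and cover counting error only. The lists carry no read totals, and the sequencing depth behind them is unknown.

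As background, KDM4A is a JmjC-domain enzyme that removes methyl groups from histone H3, with lysine 36 and lysine 9 as the known targets of its family, and it binds the heterochromatin protein HP1a. Trimethylated lysine 36 lies over the bodies of transcribed genes. On the X of male flies the same mark helps the dosage compensation (MSL) complex to settle on active genes, whose transcription is raised to balance the single X against the paired autosomes. The X interior is mostly euchromatin, in which gene-rich stretches alternate with long stretches of few or silent genes.

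Across the interior, KDM4A regions were numerous, short and unevenly spaced. Replicate 1 had 82.4 regions per Mb that covered 23.4% of the bases (4.54 Mb), and replicate 2 had 49.8 per Mb that covered 12.9% (2.51 Mb). The means were 66.1 ± 23.1 regions per Mb and 18.2% ± 7.4 (SD, n = 2). The combined list lay close to replicate 1, with 86.2 regions per Mb and 23.5% covered. Replicate 1 thus had more regions in the interior than replicate 2 and covered more of it, and this difference sets the scale of error for every density below.

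The 1 Mb bins of the interior differed widely among themselves, in a similar order in both replicates. Over the 19 whole bins, replicate 1 covered 14.4% to 36.4% of the bases (median 21.9%). Replicate 2 covered 6.74% to 18.7% (median 13.2%). The correlation of the replicates across these bins was r = 0.74 (rho = 0.70). Across 194 bins of 100 kb it was r = 0.82 (rho = 0.88). Bins share their libraries and neighbouring bins resemble each other (r = 0.24 and 0.19 between adjacent 100 kb bins in replicates 1 and 2), so no p is given.

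**Figure D1:**
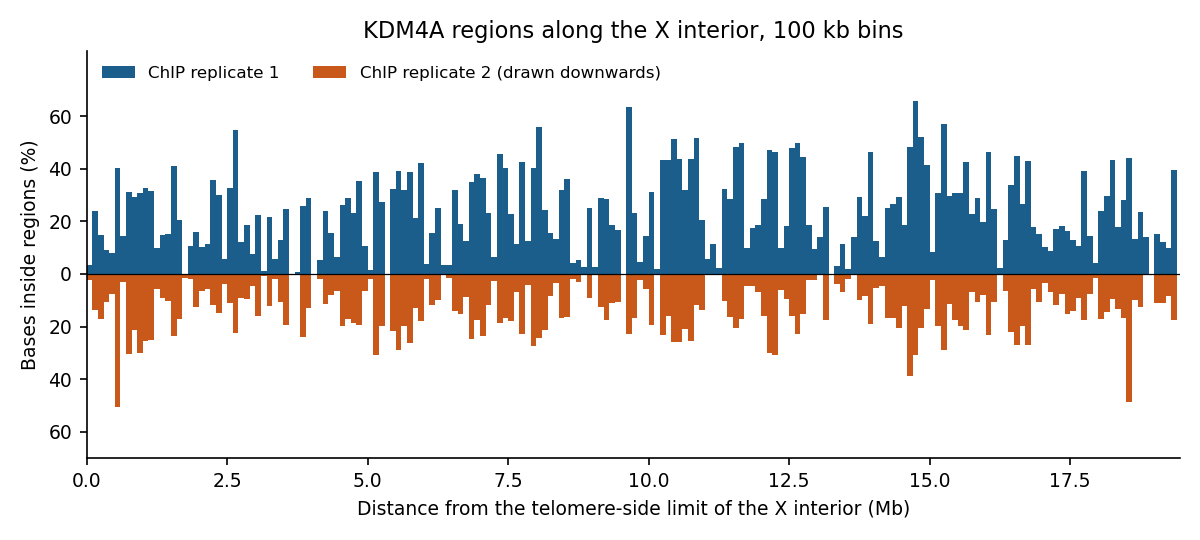
Share of bases inside KDM4A regions (percent, vertical axis) in consecutive 100 kb bins against the distance from the telomere-side limit of the X interior (Mb). Replicate 1 is drawn upwards and replicate 2 downwards on the same scale; replicate 1 was higher in 178 of 194 bins and replicate 2 in 10, and the tallest bars reach 65.8% and 50.5%.

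In replicate 1 the 3 fullest 1 Mb bins were 11000001 to 12000000 (36.4% covered, 117 regions), 15000001 to 16000000 (32.6%, 108 regions) and 13000001 to 14000000 (32.1%, 107 regions). The emptiest were 4000001 to 5000000 (14.4%, 48 regions), 18000001 to 19000000 (15.2%, 63 regions) and 14000001 to 15000000 (16.7%, 60 regions). Full and empty megabases thus lay next to each other: the bin from 14000001 held 16.7% between neighbours of 32.1% and 32.6%. In replicate 2 the fullest bins were 1000001 to 2000000 (18.7%, 66 regions), 11000001 to 12000000 (18.3%, 63 regions) and 6000001 to 7000000 (18.0%, 67 regions). Its emptiest were 14000001 to 15000000 (6.74%, 26 regions), 12000001 to 13000000 (8.03%, 28 regions) and 18000001 to 19000000 (9.54%, 39 regions). The bin from 11000001 was among the 3 fullest in both replicates, and the bins from 14000001 and 18000001 among the 3 emptiest in both.

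The ratio of the replicates' covered bases varied from bin to bin. Set against replicate 1, replicate 2 covered 90.7% as many bases in the bin from 1000001 (18.7% against 20.6%) but 35.7% in the bin from 12000001 (8.03% against 22.5%), and a median of 55.2% over the bins. The bin from 1000001, first in replicate 2, was 12th of 19 in replicate 1. Of the 100 kb bins, replicate 2 covered more than replicate 1 in 10, and replicate 1 more in 178. The fullest 100 kb bin of replicate 2, 1500001 to 1600000, was one of those 10, with 50.5% covered against 40.3% in replicate 1. The fullest of replicate 1, 15700001 to 15800000, was covered to 65.8%, against 30.8% in replicate 2.

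Regions, counted by midpoint, were spread unevenly over the 100 kb bins. Evenness is given as the variance to mean ratio, which is 1 for counts that follow a Poisson distribution. In replicate 1 the mean was 8.25 regions per bin with an SD of 4.52, a range up to 20 and 9 bins without a region midpoint. In replicate 2 it was 4.98 with an SD of 3.38, a range up to 16 and 19 bins without one. The ratios were 2.48 and 2.29 (mean 2.38 ± 0.13, SD, n = 2), against 2.85 for the combined list. No chance model of region placement was fitted, so these ratios are a description of the lists.

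The typical gap between neighbouring regions was a few kilobases, with a long tail. Gap means the number of bases between the end of a region and the start of the next. In replicate 1 the median gap was 3250 bp, the quartiles were 1198 and 8494 bp, and the longest was 232581 bp. In replicate 2 the median was 5862 bp, the quartiles were 2036 and 15409 bp, and the longest was 431661 bp. The mean gap was well above the median, at 9269 bp in replicate 1 and 17448 bp in replicate 2. The SD of the gaps was 2.07 and 1.96 times their mean. The shape of the spacing was thus much the same in the replicates, at different overall densities. Gaps of at most 1 kb made up 22.2% of gaps in replicate 1 (355 of 1600) and 13.4% in replicate 2 (129 of 966), and the smallest gaps were 1 and 2 bp. Such gaps show that neighbours a few bases apart were listed as separate regions.

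**Figure D2:**
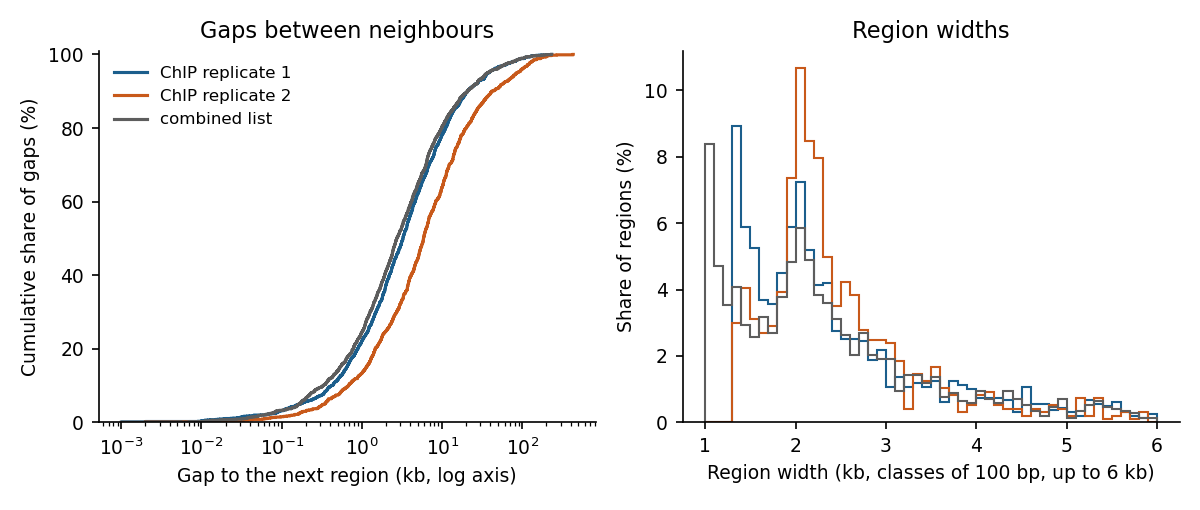
Left, the cumulative share of gaps (percent) against the gap to the next region (kb, log axis); right, the share of regions (percent) in width classes of 100 bp, drawn up to 6 kb. Curves are replicate 1, replicate 2 and the combined list; the replicate 2 gap curve lies to the right of the others, and all width curves have a peak at 2000 to 2099 bp.

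Widths were spread broadly, with a local peak near 2 kb in each list. The quartiles were 1752 and 3188 bp in replicate 1 and 1980 and 2855 bp in replicate 2. Median widths were 2197 bp in replicate 1 and 2254 bp in replicate 2 (mean 2226 ± 40, SD, n = 2) and 2178 bp in the combined list. Replicate 1 and the combined list had a peak at the narrowest widths they hold, and all lists had one near 2 kb. The narrowest region of any chromosome was 1301 bp in each replicate list and 1001 bp in the combined list, where 185 regions had exactly that width. In the interior, the class of 1300 to 1399 bp held 143 regions of replicate 1 (8.93%) and 29 of replicate 2 (3.00%), and the class of 1000 to 1099 bp held 140 combined regions (8.36%). The emptiest 100 bp class from 1500 bp to the peak held 57 (replicate 1), 26 (replicate 2) and 43 (combined) regions. The peak, at 2000 to 2099 bp, held 116 regions of replicate 1 (7.25%), 103 of replicate 2 (10.7%) and 98 combined ones (5.85%). The interiors of 2L, 3L and 3R had the same peak at 2000 to 2099 bp in both replicates, with 5.42% to 7.15% of regions in replicate 1 and 9.87% to 11.3% in replicate 2, so it was not a feature of the X alone.

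Wide regions were fewer and differed more between the replicates. Regions over 5 kb numbered 162 in replicate 1 (10.1%), where they held 25.9% of the covered bases, and 48 in replicate 2 (4.96%), where they held 12.2%. Regions over 10 kb numbered 21 and 3, and 21 in the combined list. Median width by 1 Mb bin moved little along the chromosome, between 2000 and 2513 bp in replicate 1 and between 2088 and 2499 bp in replicate 2. Widths of neighbouring regions were nearly unrelated (rho = 0.11 and -0.01 across regions of replicates 1 and 2). Wider regions tended to score higher, with rho of 0.64 between width and the authors' enrichment score in replicate 1 and 0.74 in replicate 2. The widest were not the best-scoring: the widest region ranked 264th of 1601 by score in replicate 1 and 539th of 967 in replicate 2. The scale of that score is not named in the lists, so scores serve only to rank regions within a list.

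All of the 10 widest combined regions in the interior were touched in both replicates, and replicate 2 broke each of them into pieces. Of all combined interior regions, 49.0% were touched in both (821 of 1674). Spans this long exceed the median gaps of both replicates, so a touch of 1 bp says little about them. How the combined list arose is not stated, so it is no independent check on the replicates. They were 12.8 to 19.1 kb wide. Replicate 1 covered 84.5% to 99.4% of each with 1 to 3 regions, and 6 of the 10 with more than 1. Replicate 2 covered 36.0% to 89.2% of each with 2 to 4 regions. The widest, X 11685180 to 11704278 (19.1 kb), had 97.0% of its bases inside replicate 1 regions and 55.1% inside those of replicate 2, 2 regions each. The next were X 17183086 to 17200808 (17.7 kb, covered to 92.9% and 49.5%) and X 19489664 to 19506460 (16.8 kb, 99.0% and 75.9%). X 8300152 to 8316438 (16.3 kb) overlapped the widest region of replicate 1, 17653 bp long, and had 41.6% of its bases covered in replicate 2. X 8780504 to 8796656 (16.2 kb) was the best matched of the 10, at 99.3% and 89.2%. The others began at 16178370, 6744980, 15687048, 11314908 and 1529196. The widest region of replicate 2, X 1504452 to 1515528 (11077 bp), was covered to only 42.1% in replicate 1, by 2 regions of at most 2876 bp.

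The highest-scoring region of the interior was the same in all 3 lists, with closely placed ends. Replicate 1 placed it at 5417310 to 5419905 (2596 bp) and replicate 2 at 5417297 to 5419894 (2598 bp). Its combined span was 5417274 to 5419908 (2635 bp). Of the 5 highest-scoring combined regions, those at 3633792 to 3640040 (6249 bp) and 1291122 to 1295178 (4057 bp) were also touched in both replicates. The former ranked 7th of 1601 by score in replicate 1 and 3rd of 967 in replicate 2, and the latter 11th and 2nd. The other members of the 5, at 2965018 to 2966062 (1045 bp) and 14932130 to 14933130 (1001 bp), had no region in either replicate. Both are narrower than any region of the replicate lists. Among the 20 highest-scoring regions of each replicate, 8 overlapped. All 20 of replicate 2 were found somewhere in replicate 1, and 15 of the 20 of replicate 1 in replicate 2.

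Clusters were defined as chains of 3 or more regions in which each gap was at most 1 kb. Most regions stood alone at that distance: 978 of the 1601 regions of replicate 1 (61.1%), 731 of the 967 of replicate 2 (75.6%) and 969 of the 1674 combined regions (57.9%). Replicate 1 had 64 clusters with 215 regions (13.4% of regions), replicate 2 had 17 with 56 (5.79%) and the combined list 82 with 277 (16.5%). The mean of the replicates was 9.61% (SD 5.4, n = 2). A further 204, 90 and 214 chains were pairs. The largest chains held 6, 4 and 5 regions. Clusters were short, with a median span of 10366 bp in replicate 1 and 9304 bp in replicate 2, and a longest span of 32466 and 20113 bp.

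Of the 64 clusters of replicate 1, replicate 2 had a cluster of its own in 8 (12.5%), 3 or more regions in 20, and at least 1 region in 57 (89.1%), of which 11 had only 1. Of the 17 clusters of replicate 2, 8 overlapped a cluster of replicate 1 (47.1%), 8 were touched by 3 or more of its regions, and all 17 by at least 1. These counts carry no correction for the length of a cluster, and a longer span has more room to be touched. Replicate 1 had 2 clusters of 6 regions. The longer ran from 12540458 to 12571537 (31.1 kb), with 6 regions in replicate 1 (89.7% of its bases), 6 in replicate 2 (52.4%) and 6 in the combined list (94.0%). The shorter, 16176536 to 16198842 (22.3 kb), held 6, 5 and 3 regions. The widest cluster, 8772560 to 8805025 (32.5 kb), held 5 regions of replicate 1 and 3 of replicate 2, and with 5 combined regions was also the longest of the largest clusters of that list. Those at 19237898 to 19256788 and 10975162 to 10990649 held 5 regions each in replicate 1 and 1 and 2 in replicate 2.

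Replicate 2 had 5 clusters of 4 regions, its largest number. The longest ran from 3997275 to 4012572 (15.3 kb), with 4 regions in replicate 2 and 3 in replicate 1. The others began at 15212281, 11905554, 12794822 and 18538348 and were 9.86 to 11.1 kb long. Replicate 1 covered 68.3% to 92.7% of these 5 spans, with 2 to 4 regions. The combined list had 7 clusters of 5 regions. The 4 longest of these were touched by 3 to 6 regions of replicate 2, but the next, 6966114 to 6982690, held 5 combined regions, 3 regions of replicate 1 and none of replicate 2.

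**Figure D3:**
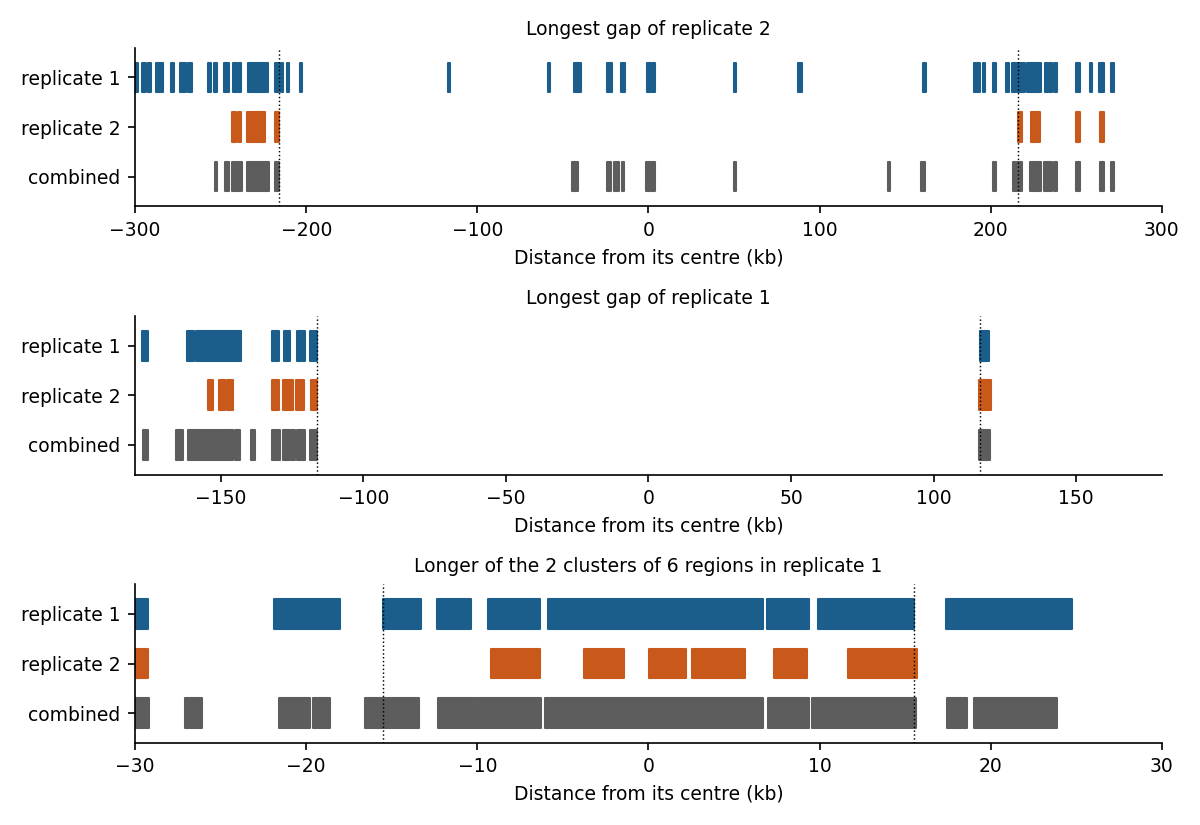
Maps to scale of the longest gap of replicate 2, the longest gap of replicate 1 and the longer of the 2 clusters of 6 regions in replicate 1, each as distance from its own centre (kb); bars are regions in replicate 1, replicate 2 and the combined list, and dotted lines mark the ends of the gap or cluster. Replicate 1 and combined regions lie inside the upper gap, the middle gap holds no region in any list apart from bases at its ends, and the cluster holds 6 regions in each replicate.

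Regions with near neighbours had larger median widths than isolated ones in each list, by an amount that differed between lists. In replicate 1, regions within 1 kb of another had a median width of 2283 bp and those over 10 kb from any other 1893 bp. In replicate 2 the values were 2331 and 2111 bp, and in the combined list 2289 and 1581 bp. Isolated regions of the second kind numbered 119 in replicate 1 (7.43%) and 145 in replicate 2 (15.0%). Replicate 1 regions in clusters were found in replicate 2 in 59.1% of cases (127 of 215, 52.2 to 65.7), and single regions in 51.2% (501 of 978, 48.0 to 54.4), with overlapping intervals. For replicate 2 regions found in replicate 1, the shares were 89.3% of those in clusters (50 of 56, 78.1 to 96.0) and 91.2% of single ones (667 of 731, 89.0 to 93.2), again with overlapping intervals. Regions in pairs were found in 56.9% of cases in replicate 1 (232 of 408, 51.9 to 61.7) and 95.6% in replicate 2 (172 of 180, 91.4 to 98.1). Recovery in replicate 2 thus did not follow the number of regions in a chain.

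Sparse stretches, taken as gaps of at least 50 kb, filled 26.2% of the interior in replicate 1 (55 stretches, 5.10 Mb) and 48.4% in replicate 2 (89 stretches, 9.40 Mb). The mean was 37.3% ± 15.7 (SD, n = 2), and the combined list gave 29.2% (64 stretches). The sparse stretches of replicate 1 lay almost wholly inside those of replicate 2: 97.7% of their bases were also in a sparse stretch of replicate 2, and 38 of the 55 held no base of a replicate 2 region. In the other direction 53.0% of the sparse bases of replicate 2 were sparse in replicate 1, and 3 of the 89 stretches held no replicate 1 region. Replicate 1 placed 409 of its interior regions (25.5%) in or at the edge of replicate 2 sparse stretches, and these covered 7.17% of them. Those 409 regions had a median width of 1959 bp, against 2298.5 bp for the other replicate 1 regions.

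The 2 longest gaps of replicate 1 had nearly the same ends in every list. The longest gap of replicate 1, 14142652 to 14375232 (233 kb), was matched in replicate 2 by a gap from 14142719 to 14374923 and in the combined list by one from 14142705 to 14374885, so its ends moved by at most 67 and 347 bp. The next, 4597635 to 4799256 (202 kb), was matched by 4597647 to 4800351 and 4597953 to 4799805. The gap at 7005383 to 7178735 (173 kb) was free of replicate 2 regions too, but the combined list had 5 regions there with a median width of 1483 bp. The gap at 19879100 to 20041452 (162 kb) was free in all lists. In the next, 7634667 to 7782158 (147 kb), replicate 2 had 1 region that reached 0.205% of it and the combined list 3 regions. Altogether 46 stretches of at least 50 kb were free in all 3 lists. They summed to 3.97 Mb, or 20.5% of the interior, and 12 of them exceeded 100 kb.

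Replicate 2 had longer free stretches that replicate 1 filled thinly. Its longest gap, 11924304 to 12355964 (432 kb), was touched by 22 regions of replicate 1 with a median width of 1518 bp, which covered 8.07% of it, and by 14 combined regions, which covered 5.21%. The gap from 19784599 to 20052226 (268 kb) was touched by 13 regions of replicate 1 (8.31% covered) and that from 7230048 to 7437442 (207 kb) by 7 (7.09%). In the order named, the replicate 1 regions touching these gaps had median scores of 0.964, 0.970 and 0.744. The median over all its interior regions was 0.879. The gaps from 14142719 and 4597647 were the shared ones above. Gaps do not show absence of KDM4A: the lists do not tell sequence where reads cannot be placed from sequence without enrichment, and no genome of release 5 was used here.

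The share of regions recovered differed by direction, while the numbers found were similar and the lists differed in length. At a shared length of at least 1 bp, replicate 1 held 889 of the 967 replicate 2 regions of the interior (91.9%, 90.0 to 93.6), and replicate 2 held 860 of the 1601 replicate 1 regions (53.7%, 51.2 to 56.2). The difference between these shares thus includes the difference in list length. With replicate 1 reduced to its 967 best-scoring interior regions, the shares were 66.5% for replicate 2 regions and 61.3% for replicate 1 regions. The full lists shared 2.20 Mb, which was 87.6% of the bases covered in replicate 2 and 48.5% of those in replicate 1. The 78 replicate 2 regions not found were narrow, with a median of 1620 bp and a maximum of 2853 bp. The 741 of replicate 1 not found had a median of 1795 bp and reached 11199 bp.

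Recovery rose steeply with width, and between the classes given next the largest step of replicate 1 was at 2000 bp. In classes of 100 bp the rise was spread out. Replicate 1 gave 29.2% at 1800 to 1899 bp, 50.0% at 1900 to 1999 bp, 61.2% at 2000 to 2099 bp and 69.9% at 2100 to 2199 bp. Of replicate 1 regions under 1500 bp, 10.5% were found in replicate 2 (25 of 237, 6.94 to 15.2), and of those from 1500 to 1999 bp 29.2% (107 of 366, 24.6 to 34.2). The share reached 67.9% from 2000 to 2299 bp (180 of 265, 61.9 to 73.5) and 74.8% above that (548 of 733, 71.5 to 77.9). In replicate 2 the same classes gave 60.3% (41 of 68), 79.3% (153 of 193), 96.9% (254 of 262) and 99.3% (441 of 444). The class limits were set after the widths had been seen. By width quartile of each list the shares rose from 12.7% to 81.5% for replicate 1 regions and, for those of replicate 2, from 73.1% to 100%. A wider region has more room to touch another, and the part of this in the rise was not tested.

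**Figure D4:**
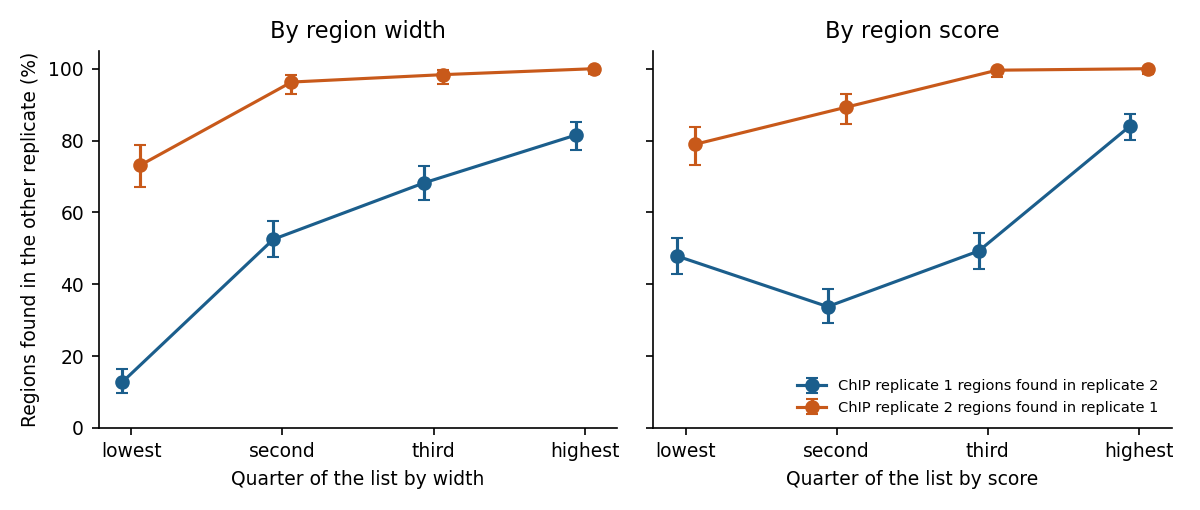
Share of X interior regions found in the other replicate (percent, with exact 95% intervals) by quartile of the list, ranked by width on the left and by the authors' score on the right. By width both replicates rise from the lowest to the highest quartile; by score replicate 1 has its lowest share, 33.8%, in the second quartile.

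By score the course differed. In replicate 2 recovery rose from 78.9% in the lowest quartile (191 of 242, 73.2 to 83.9) to 100% in the highest. In replicate 1 it was 47.9% in the lowest quartile (192 of 401, 42.9 to 52.9), 33.8% in the second (135 of 400, 29.1 to 38.6), 49.3% in the third (197 of 400, 44.2 to 54.3) and 84.0% in the highest (336 of 400, 80.0 to 87.5). The lowest-scoring quartile of replicate 1 was thus found more often than the one above it, although its regions were narrower, with a median of 1742 against 2015 bp.

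Along the chromosome, the share of replicate 1 regions found in replicate 2 ran from 33.3% in the bin from 12000001 (24 of 72, 22.7 to 45.4) to 71.6% in the bin from 6000001 (63 of 88, 61.0 to 80.7), with 71.4% in the bin from 1000001 (55 of 77, 60.0 to 81.2). In the other direction it ran from 80.3% in the bin from 1000001 (53 of 66, 68.7 to 89.1) to 100% in the bin from 14000001 (26 of 26, 86.8 to 100).

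In 730 pairs a region of each replicate touched only the other, a choice that leaves out split regions. The starts differed by a median of 184 bp (upper quartile 526.5 bp) and the ends by 179 bp (upper quartile 639 bp). In 107 pairs (14.7%) both edges lay within 100 bp. Replicate 1 was the wider in 471 pairs (64.5%), by a median of 192 bp over all pairs. Widths of the pairs correlated with rho = 0.53 and scores with rho = 0.69. In addition, 57 regions of replicate 1 touched 2 regions of replicate 2 and 6 touched 3, with median widths of 6542 and 12714 bp. In the other direction 40 regions of replicate 2 touched 2 of replicate 1, with a median width of 4183.5 bp. Splitting was thus seen in both directions, in narrower regions for replicate 2.

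In the combined list, 821 of the 1674 interior regions were touched in both replicates (49.0%, 46.6 to 51.5), 558 in replicate 1 alone (33.3%, 31.1 to 35.6), 65 in replicate 2 alone (3.88%, 3.01 to 4.92) and 230 in neither (13.7%, 12.1 to 15.5). Median widths in these classes were 2901, 1791, 1769 and 1193 bp. Of the 230 without support, 146 (63.5%) were narrower than the narrowest region of the replicate lists, 1301 bp. Regions that narrow also made up 127 of the 558 touched in replicate 1 alone (22.8%). Among the 65 touched in replicate 2 alone they numbered 5 (7.69%), and among the 821 touched in both 0. A width under 1301 bp was thus not confined to regions without support. The 230 included the combined regions ranked 2nd, 5th, 8th and 11th by score. The last 2 of these lay at 7708780 to 7710048 and 7740228 to 7741228. Both of these fell inside the gap of replicate 1 from 7634667 named above.

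Side by side with the interiors of 2L, 3L and 3R, taken with the same distances from telomere and centromere, the X interior had the lowest share of regions in clusters in every list. It was 13.4% on the X against 15.5% to 16.4% on the arms in replicate 1, 5.79% against 8.79% to 11.1% in replicate 2 and 16.5% against 20.7% to 23.8% in the combined list. The X minus the mean of the 3 arms was -2.40 percentage points in replicate 1 and -4.17 in replicate 2 (mean -3.28 ± 1.25, SD, n = 2). Density did not follow the same order. With 49.8 regions per Mb and 12.9% of bases covered the X lay above the arms in replicate 2 (43.1 to 46.5 and 11.9% to 12.8%), and with 86.2 also in the combined list (74.2 to 82.7), but in replicate 1 its 82.4 fell within the range of the arms (78.1 to 86.5). Counted in chains of 2 or more, the X share in replicate 1, 38.9%, was no longer below all arms, the lowest of which had 38.7%. In replicate 2 it stayed below them, at 24.4% against 28.2% for the lowest arm. With chaining at 500 bp or 2000 bp, or regions at or above the median score, the X share in clusters was below all 3 arms in both replicates. Median gap, median width and the share in sparse stretches on the X fell within the range of the 3 arms in all 3 lists. The variance to mean ratio of the X did so in replicate 1 and the combined list, and in replicate 2 it was 2.29 against 2.37 to 2.80 on the arms. The share of regions over 5 kb lay outside the arms in opposite directions in the replicates. It was 10.1% on the X against 7.72% to 8.35% in replicate 1, and 4.96% against 6.49% to 7.69% in replicate 2. In the combined list it was within their range (9.38% against 9.36% to 10.3%). Regions of a library are not replicates, and 1 chromosome against 3 in 2 libraries allows no test that could reach the usual threshold, so the lower share in clusters is not shown to be particular to the X.

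**Figure D5:**
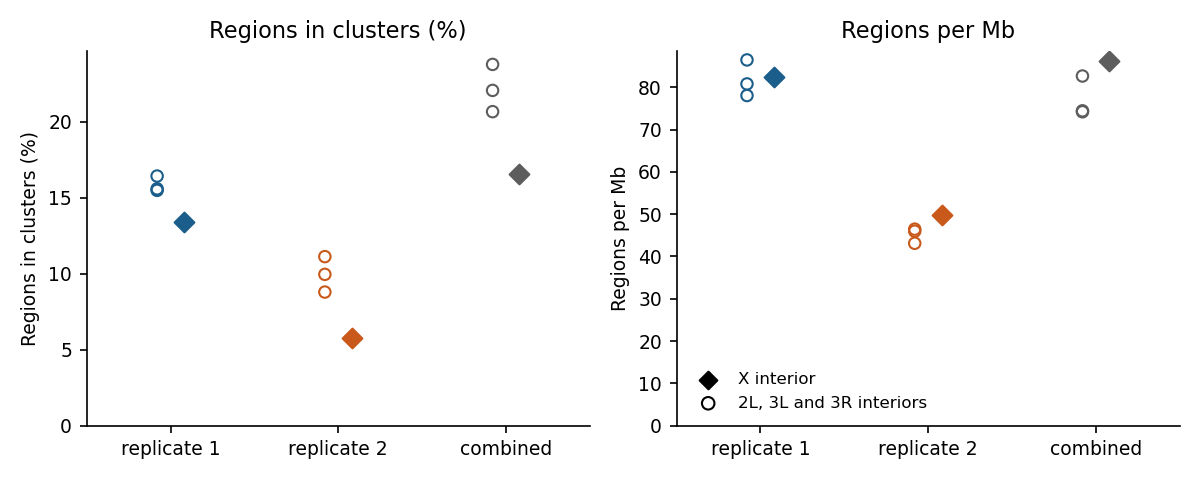
Share of regions in clusters (percent, left) and regions per Mb (right) in replicate 1, replicate 2 and the combined list; filled diamonds are the X interior and open circles the interiors of 2L, 3L and 3R. On the left the diamond lies under all circles in each list; on the right it lies above them in replicate 2 and the combined list only.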

How the data were processed

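The study measured KDM4A by ChIP-seq in 2 ChIP and 2 input libraries; a list of regions per ChIP replicate and a combined list were used, and 0 columns of other samples were present. Bowtie 0.12.7 is named, per the submitters' processing notes. The deposited positions follow FlyBase release 5, per the file headers. How regions were called, at which threshold and with what use of input, and how the combined list arose, is not stated in these sources. Each deposited region carries the authors' enrichment score, of unnamed scale. In the combined list 100% of starts were even numbers, against 50.0% and 49.8% in replicates 1 and 2, and its narrowest regions were 1001 bp instead of 1301 bp.

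Samples were grouped by title and source name; the free-text descriptions of ChIP replicate 2 and input replicate 1 conflict with these. Members were selected by midpoint. Clusters were chains of at least 3 regions with gaps of at most 1 kb, sparse stretches gaps of at least 50 kb, and bins 100 kb or 1 Mb. Found means sharing at least 1 bp. Named regions were the 10 widest and 5 highest-scoring combined regions, the 5 longest gaps and 5 largest clusters of each list (most regions, then longest span), and the 3 fullest and emptiest 1 Mb bins of each replicate. The members and measures were chosen with earlier results of these data known; the width classes and the cluster comparison with the arms were shaped after their values were seen. Python 3.11.15, numpy 2.4.6, pandas 2.3.3, scipy 1.17.1 and matplotlib 3.10.9 were used, and the code was tested on lists with known answers. Gene names, gene parts and sequences were not analysed here, since the annotation used is of release 6.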

Additional observations from a re-analysis of the deposited data

How the results depend on the processing

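Of 62 alternative values, 38 stayed within 1 SD of the replicates (or within the interval of a share) and 24 moved; with n = 2 a single replicate lies within 1 SD by construction. Single replicates gave 49.8 to 82.4 regions per Mb, 12.9% to 23.4% covered, median widths of 2197 to 2254 bp, median gaps of 3250 to 5862 bp, 5.79% to 13.4% of regions in clusters, 26.2% to 48.4% in sparse stretches, variance to mean ratios of 2.29 to 2.48 and differences from the arms of -4.17 to -2.40. Keeping regions at or above the median score gave 33.1 regions per Mb, a median width of 2737 bp, a median gap of 10801 bp, 2.18% in clusters, 57.3% in sparse stretches and a ratio of 1.93; fewer regions enter by construction. The combined list gave a median width of 2178 bp, 16.5% in clusters, a ratio of 2.85 and a difference from the arms of -5.62. With replicate 1 reduced to its 967 best-scoring interior regions the median widths of replicates 1 and 2 moved apart to 2697 and 2254 bp (mean 2476 bp) and covered shares were 17.1% and 12.9%, while they then had 5.58% and 5.79% in clusters, ratios of 2.26 and 2.29, median gaps of 6160 and 5862 bp and 42.0% and 48.4% in sparse stretches. Regions of at least 1500 bp had a median width of 2327 bp. Chaining at 500 bp or 2000 bp gave 3.15% and 25.0% in clusters, and a difference from the arms of -1.38 at 500 bp. Stretches of at least 100 kb filled 21.1%. Bins of 50 kb and 250 kb gave ratios of 1.97 and 2.93. For replicate 2 regions found in replicate 1, the value became 71.4% at 50% of both lengths, 84.3% among the higher-scoring regions and 66.5% with replicate 1 reduced; in reverse, 43.1%, 50.2% and 61.3%. Beyond these constructions the cause was not tested. The settings for the difference from the arms were added after seeing the data. Transcription start sites and genes were not run, since the gene table is of another release. No paired analysis was possible because the only groups that share replicate numbers are ChIP and input, and input regions were not analysed here. What depth contributes to the gap between replicates was not tested, since depth is unknown.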
